A study of Ovis aries with 9 samples.

Results

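Immediate early transcription factors are DNA-binding proteins whose genes are switched on within minutes of a stimulus, without new protein synthesis. FOS, FOSB, FOSL2, JUN and JUNB belong to AP-1, a dimer of one FOS-type and one JUN-type subunit or of JUN-type subunits alone, and ATF3 is a stress-induced relative that pairs with them. EGR1, EGR2 and KLF4 are zinc-finger factors, and MYC drives growth and ribosome production. In the ovary such genes are known as fast targets of gonadotropin and growth-factor signalling in granulosa cells, the somatic cells that surround the oocyte.

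These 10 genes were read from the FPKM table of annotated genes by exact match of the gene symbol, and each symbol had 1 row among 39157 rows. FPKM is the number of sequenced fragments per kilobase of transcript scaled to the mapped fragments of the library, so levels of different genes can be set side by side. The cells were granulosa cells of thin-tailed Han sheep aged 1 to 1.5 years, taken from 3 to 5 mm follicles of more than 50 abattoir ovaries that were pooled. All cultures had 48 h in medium with 10% serum and were grown in plates in such medium to a set confluence, for a time not stated. They then had 8 h without glucose and serum. They were then held for 24 h at 0 mM glucose (CON), 8.4 mM glucose (LOW) or 33.6 mM glucose (HIGH), with 3 RNA libraries per group. Follicle suspensions were pooled before culture and no source ties a library to an animal, so p-values measure the spread between these libraries, which may be technical. The LOW and HIGH libraries were thus sampled a day after glucose was added, long past the first minutes in which these genes are usually followed.

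Depth and cell makeup set the frame for the values. An FPKM of 1 stood for 48.0 to 71.3 fragments per kilobase of transcript, depending on the library, so counting precision was much better for the abundant members than for the scarce ones. CON replicate 1 and CON replicate 3 stood apart from each other in the number of assembled loci with a value above 0. Assembled loci are those that carry only an identifier from the transcript assembly, and they can overlap annotated genes. There were 10652 in CON replicate 1 and 8565 in CON replicate 3, with 9090 to 10204 in the other libraries. CON replicate 1 was also the deepest library, with 71.3 fragments per kilobase at an FPKM of 1. Its most abundant genes held 60.1% of its FPKM, where those of the other libraries held 69.0% to 75.3%. Of 12 granulosa markers, 8 were listed under their symbol and the rest were not analysed here. CYP11A1, which starts steroid synthesis, was at 141 to 202 FPKM, while FSHR, the receptor for follicle-stimulating hormone, was at 0.228 to 0.577 FPKM. Stromal markers were abundant, LUM reaching 2288 FPKM and TAGLN 2832 FPKM in CON replicate 3, while CYP17A1, the steroid enzyme that marks theca cells, was at 0.139 to 0.421 FPKM. The endothelial marker CDH5 and the oocyte marker BMP15 were listed at 0 in all 9 libraries. Other genes of the same lists were not at 0. The endothelial marker TEK was at 0.531 to 0.978 FPKM and the oocyte marker GDF9 at 0.532 to 0.871 FPKM. In bulk RNA, a change in the share of a cell type and a change in RNA per cell cannot be told apart.

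The 10 genes spanned more than 3 orders of size in level. FOSL2, on chromosome 3 (3:35221708-35240439; the genome build is not given in the sources used here), had the highest mean over the 9 libraries, 61.6 ± 9.24 FPKM (SD, n = 9), above 96.5% of rows with a symbol. JUN (1:33248219-33249157) followed with 27.1 ± 6.17 FPKM and MYC (9:25632645-25637672) with 23.6 ± 3.61 FPKM. JUNB (5:10817372-10818283) had 19.5 ± 1.81 FPKM, FOS (7:83397872-83400138) 12.6 ± 1.67 FPKM and EGR1 (5:47225278-47227722) 4.83 ± 1.11 FPKM. The last 4 lay below 1 FPKM. ATF3 (12:69063118-69069280) averaged 0.694 ± 0.206 FPKM, KLF4 (2:15622345-15627837) 0.438 ± 0.0629 FPKM, EGR2 (25:18804036-18815511) 0.316 ± 0.0777 FPKM and FOSB (14:52143114-52147300) 0.0302 ± 0.0287 FPKM.

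Most steps in this order held in every library. FOSL2 stood above JUN, JUNB above FOS, FOS above EGR1, EGR1 above ATF3, KLF4 above EGR2 and EGR2 above FOSB in 9 of 9 libraries. JUN stood above MYC in 6 of 9 libraries, MYC above JUNB in 7 of 9 and ATF3 above KLF4 in 8 of 9, so these neighbours overlapped. FOSL2 alone supplied 78.4% to 86.0% of the FPKM summed over FOS, FOSB, FOSL1 and FOSL2, and FOS supplied 12.1% to 20.8%. FOSB, a close relative of FOS, was next to absent, with 0 FPKM in 3 libraries (CON replicate 2 and HIGH replicates 2 and 3) and at most 0.0845 FPKM elsewhere.

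**Figure D1:**
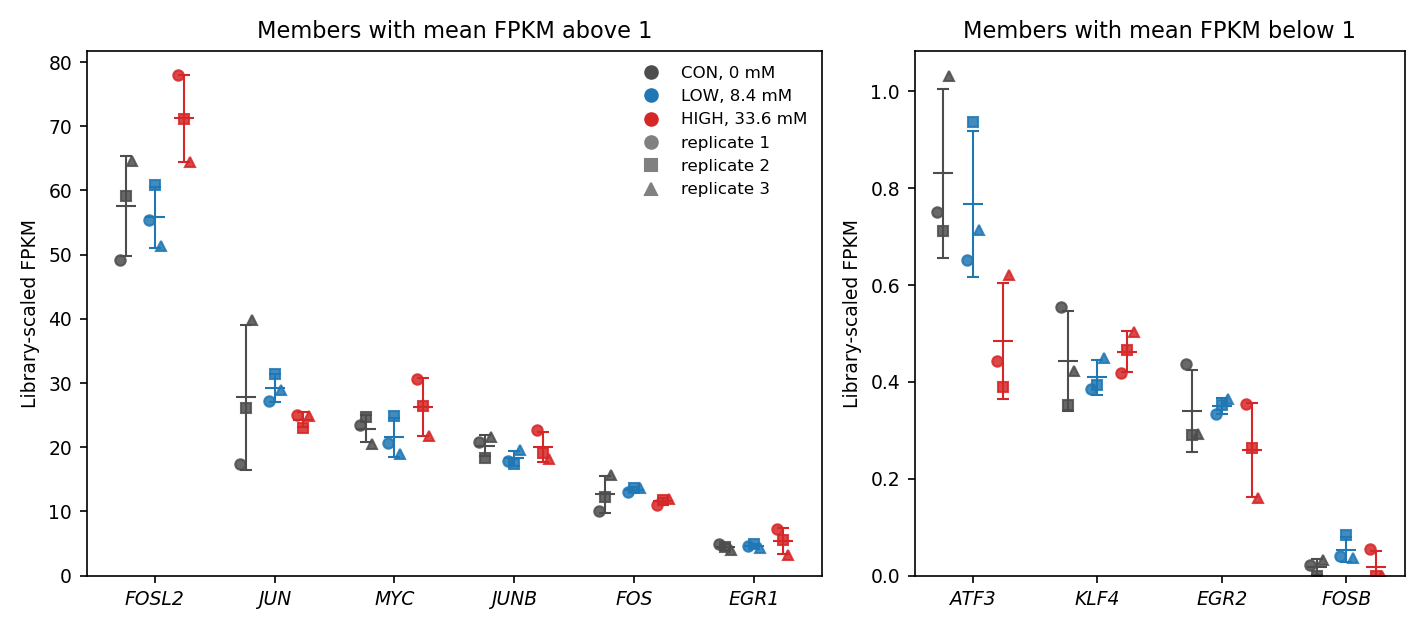
Library-scaled FPKM of each gene in the 9 libraries on linear axes, for the 6 genes with a mean above 1 FPKM (left) and the 4 below (right); points are libraries, horizontal marks are group means and bars are 1 SD (n = 3). FOSL2 is the most abundant in every library, and in the HIGH group its 3 values lie above the LOW values while those of ATF3 lie below both other groups.

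The first question was whether 8.4 mM glucose moved these genes from their level without glucose. No member passed the test. Of the 10 genes, 9 passed the filter of 0.1 FPKM in at least 3 libraries, and limma with Benjamini-Hochberg adjustment over 25531 genes called 0 of the 9 in LOW against CON (adjusted p under 0.05 and a log2 fold change beyond 1). Over all genes, 0.00783% were called, and at an unadjusted p under 0.05 the counts were 0 of 9 members against 1.95% of all genes. The largest difference was that of JUN, 0.15 on the log2 scale with a 95% interval of -0.41 to 0.71, and every adjusted p of the 9 was 0.9999. No tested member had groups without overlap, where 6.17% of all genes did (3.11% with LOW higher and 3.06% with LOW lower). The intervals excluded a doubling or halving for each of the 9 genes, the widest being that of EGR2 at -0.65 to 0.75. FOSB, which did not pass the filter, had LOW values of 0.0414, 0.0845 and 0.0360 FPKM above CON values of 0.0219, 0 and 0.0324 FPKM, at 0 to 5.25 fragments per kilobase. Its values are too near 0 to carry a comparison.

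At 33.6 mM glucose the same test again called 0 of 9 members, both against CON and against LOW, with 0.00783% of all genes called in each comparison. At an unadjusted p under 0.05, 1 member (ATF3) passed in HIGH against CON, where 6.58% of all genes passed (4.02% higher and 2.56% lower). In HIGH against LOW 1 member (FOSL2) passed, where 7.56% of all genes did (5.11% higher and 2.45% lower). The F-test over the 3 groups called 0 of 9 members at an adjusted p under 0.05 (0.0118% of all genes) and 0 of 9 at an unadjusted p under 0.05 (5.37% of all genes). edgeR's quasi-likelihood test and DESeq2 on the deposited estimated counts called 0 of 9 members in all 3 comparisons. Groups without overlap were found for 1 of 9 members in HIGH against CON, with HIGH lower (9.35% of all genes, 5.24% with HIGH higher and 4.11% lower). In HIGH against LOW they were found for 4 of 9, namely FOSL2 with HIGH higher and JUN, FOS and ATF3 with HIGH lower (18.7% of all genes, 11% with HIGH higher and 7.68% lower). The median log2 fold change of the 9 members was -0.04 in LOW against CON, -0.02 in HIGH against CON and 0.12 in HIGH against LOW, beside 0.01, 0.07 and 0.06 over all genes tested and -0.0013, -0.0094 and -0.021 over tested genes with a symbol, as all members have. CON, LOW and HIGH each enter more than 1 of these comparisons, so the comparisons share libraries.

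**Figure D2:**
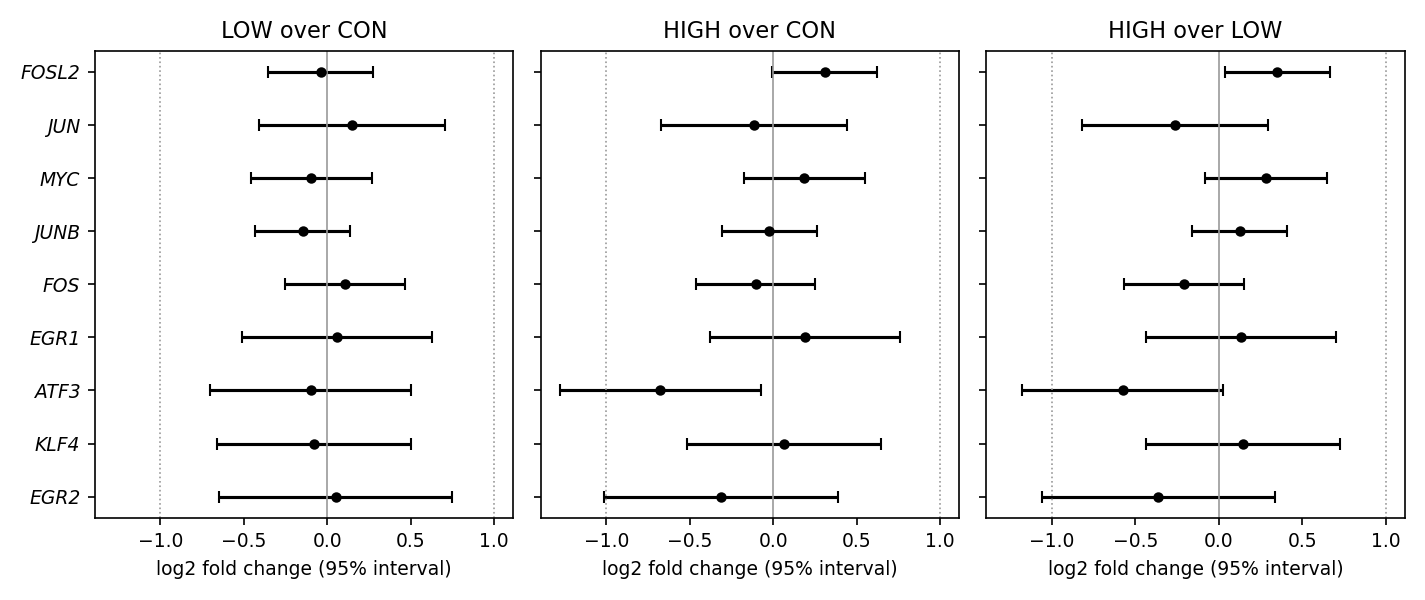
Log2 fold change of the 9 tested genes in the 3 comparisons of glucose groups, from limma on log2(FPKM + 0.1); points are estimates, bars are 95% intervals, and dotted lines mark a log2 fold change of 1 in either direction. In LOW against CON all 9 intervals include 0 and lie inside the dotted lines, and ATF3 in HIGH against CON and FOSL2 in HIGH against LOW have intervals that do not reach 0.

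ATF3, a stress-response repressor and activator induced by amino acid shortage and by unfolded proteins, had the largest differences. Its values were 0.751, 0.711 and 1.03 FPKM in CON, 0.652, 0.937 and 0.713 FPKM in LOW, and 0.442, 0.391 and 0.620 FPKM in HIGH. All 3 HIGH libraries lay below all 6 others, while CON and LOW overlapped. The log2 fold change of HIGH against CON was -0.68 (SE 0.27, 95% interval -1.28 to -0.07, adjusted p = 0.659), and that of HIGH against LOW was -0.58 (SE 0.27, 95% interval -1.18 to 0.03, adjusted p = 0.639). Across the 3 groups, the exact permutation test of the F statistic over all 280 groupings of the libraries gave p = 0.0393 for ATF3. The smallest possible value was 0.00357. ATF3 was the only member of 9 under 0.05 before any adjustment for 9 tests. Leaving out 1 library at a time moved that exact p between 0.0250 and 0.139, and it was under 0.05 only without HIGH replicate 3. Over all alternative settings the adjusted p of ATF3 in HIGH against CON ranged from 0.193 to 1. ATF3 rested on 21.6 to 59.5 fragments per kilobase per library.

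FOSL2 encodes FRA-2, a long-lived FOS-type subunit that lacks the strong activating domain of FOS. Its values were 49.2, 59.2 and 64.5 FPKM in CON, 55.4, 60.8 and 51.3 FPKM in LOW, and 78.0, 71.1 and 64.5 FPKM in HIGH. The HIGH libraries lay above all LOW libraries, and the lowest HIGH value fell beside the highest CON value. HIGH exceeded LOW by 0.35 on the log2 scale (SE 0.14, 95% interval 0.04 to 0.66, adjusted p = 0.639), a fold of 1.27, and exceeded CON by 0.31 (SE 0.14, 95% interval -0.00 to 0.62, adjusted p = 0.659). Depth was not scarce here, at 2311 to 4702 fragments per kilobase. The exact permutation p over the 3 groups was 0.0893, and it ranged from 0.0357 without CON replicate 1 to 0.229 without HIGH replicate 1.

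FOS, the founding partner of JUN in AP-1, had values of 10.0, 12.3 and 15.7 FPKM in CON, 13.0, 13.6 and 13.6 FPKM in LOW, and 11.0, 11.8 and 12.0 FPKM in HIGH. CON spread around both other groups, and the LOW values, which lay close together, were all above the HIGH values. The log2 fold change of HIGH against LOW was -0.21 (SE 0.16, 95% interval -0.57 to 0.15, adjusted p = 0.674).

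JUN, the main DNA-binding subunit of AP-1, had the same arrangement. Its values were 17.4, 26.2 and 39.8 FPKM in CON, 27.2, 31.5 and 29.0 FPKM in LOW, and 25.0, 23.0 and 24.9 FPKM in HIGH. CON replicate 1 was the lowest of all 9 libraries and CON replicate 3 the highest, and the LOW and HIGH groups did not overlap. HIGH against LOW gave -0.26 on the log2 scale (SE 0.25, 95% interval -0.82 to 0.30, adjusted p = 0.718). The direction of JUN against CON depended on these libraries: the LOW against CON value of 0.15 became -0.15 without CON replicate 1 and 0.45 without CON replicate 3.

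FOSL2 and FOS lay on opposite sides of their LOW values in HIGH, so their ratio, which needs no scaling between libraries, was computed after these values had been seen and is given without a test. FOSL2 was 4.91, 4.82 and 4.11 times FOS in CON, 4.25, 4.47 and 3.78 times in LOW, and 7.12, 6.04 and 5.37 times in HIGH. The HIGH ratios lay above all 6 others, and CON and LOW overlapped. The JUN to JUNB ratio ran from 0.839 to 1.84, with both extremes in the CON group.

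JUNB, which can replace JUN in AP-1 and is a weaker activator in many settings, was the steadiest of the abundant members. It was 20.8, 18.4 and 21.6 FPKM in CON, 17.9, 17.3 and 19.6 FPKM in LOW, and 22.6, 19.1 and 18.2 FPKM in HIGH. The groups overlapped, the highest library was 1.31 times the lowest, and the log2 fold changes were -0.15, -0.02 and 0.12 (95% intervals -0.43 to 0.14, -0.31 to 0.26 and -0.16 to 0.41).

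MYC had values of 23.5, 24.7 and 20.6 FPKM in CON, 20.7, 24.9 and 18.9 FPKM in LOW, and 30.7, 26.5 and 21.7 FPKM in HIGH. The 2 highest libraries were both HIGH, and the remaining HIGH library lay among the others. HIGH against LOW was 0.28 on the log2 scale (SE 0.16, 95% interval -0.08 to 0.65, adjusted p = 0.641). The row of MYC joined the coding transcript MYC-201 with an antisense transcript, MYC-AS1, which made up 4.04% to 8.60% of its FPKM. MYC-AS1 was at 1.25 ± 0.0746 FPKM in CON, 0.960 ± 0.189 FPKM in LOW and 1.72 ± 0.197 FPKM in HIGH (SD, n = 3 each). Whether reads were counted by strand was not stated, so reads of MYC and of its antisense transcript may not be separable where they overlap.

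EGR1, an early factor induced by luteinizing hormone in the ovary, had values of 4.89, 4.50 and 4.03 FPKM in CON, 4.62, 4.97 and 4.38 FPKM in LOW, and 7.25, 5.56 and 3.28 FPKM in HIGH. The HIGH group held both the highest values and the lowest one. HIGH against CON was 0.19 on the log2 scale (SE 0.25, 95% interval -0.38 to 0.76, adjusted p = 0.763). This value was decided by single libraries, being 0.50 (adjusted p = 0.348) without HIGH replicate 3 and -0.06 without HIGH replicate 1, and its adjusted p ran from 0.348 to 1 over all alternatives. The exact permutation p of EGR1 was 0.786 with all libraries and 0.0214 without HIGH replicate 3.

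KLF4, a factor that restrains the cell cycle in many epithelia, was 0.554, 0.352 and 0.424 FPKM in CON, 0.385, 0.393 and 0.450 FPKM in LOW, and 0.419, 0.467 and 0.503 FPKM in HIGH. EGR2, known for its part in nerve myelination and lymphocyte anergy, was 0.437, 0.290 and 0.292 FPKM in CON, 0.334, 0.352 and 0.365 FPKM in LOW, and 0.353, 0.264 and 0.160 FPKM in HIGH. The groups overlapped for both genes. Their depth was 19.6 to 43.9 fragments per kilobase for KLF4 and 7.69 to 34.7 for EGR2, and the 95% interval of HIGH against CON ran from -0.52 to 0.65 for KLF4 and from -1.01 to 0.39 for EGR2, so a halving of EGR2 was not excluded. The annotated transcript KLF4-201 carried only 15.3% to 56.4% of the KLF4 value, and a transcript assembled from the reads carried the rest.

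The members were then compared with each other across the 9 libraries, since genes with common inputs may vary together even where the group means do not differ. Of 36 pairs of the 9 tested members, 15 had a positive Pearson's r, the median r was -0.08, and 3 pairs had an unadjusted permutation p under 0.05. After Benjamini-Hochberg adjustment over the 36 pairs, 1 pair passed. This was JUN and FOS, with r = 0.954 (exact permutation p = 0.000284, adjusted p = 0.0102) and Spearman's rho = 0.950 (exact permutation p = 0.000353, adjusted p = 0.0127), n = 9. With the 2 most extreme libraries for JUN removed, r was 0.833, and leaving out 1 library at a time gave 0.918 to 0.992. With each group's mean removed, r was 0.957, and the exact permutation p within groups was 0.106 (adjusted p = 0.542), the lowest such p of any pair being 0.00926.

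Neither gene was close to the other alone. FOS held place 5 among 9518 genes ranked by their r with JUN, and JUN held place 19 for FOS. With a limit of 0.8 on the size of r, 31.3% of 9519 genes with a symbol and a mean of at least 1 FPKM passed for FOS and 18.2% for JUN, against 3.16% for FOSL2 and 0.693% for JUNB. The gene most like FOS was TMCO3 (r = 0.983), followed by APOA1 and by MAP2K1, which encodes the kinase MEK1 (r = 0.971), and the gene most like JUN was FAM241B (r = 0.965). FOS also followed the number of assembled loci detected in a library, a relation looked for after the libraries had been seen, with r = -0.930 (exact permutation p = 0.000730, adjusted p = 0.00657 over 9 members) and rho = -0.80 (exact permutation p = 0.0138, adjusted p = 0.111). For JUN, r was -0.873 (exact permutation p = 0.00458, adjusted p = 0.0206) and rho was -0.683 (exact permutation p = 0.0503, adjusted p = 0.113). Without CON replicates 1 and 3, r was -0.745 for FOS and -0.442 for JUN. MYC and EGR1 ran the other way, with r = 0.658 (exact permutation p = 0.0532, adjusted p = 0.160) and rho = 0.750 (exact permutation p = 0.0255, adjusted p = 0.111) for MYC, and r = 0.591 (exact permutation p = 0.0886, adjusted p = 0.199) and rho = 0.717 (exact permutation p = 0.0369, adjusted p = 0.111) for EGR1. Without CON replicates 1 and 3, r was 0.941 for MYC and 0.796 for EGR1. With group means removed, r was -0.951 for FOS (exact permutation p within groups = 0.0278, adjusted p = 0.0833) and -0.864 for JUN (exact permutation p = 0.204, adjusted p = 0.306). On that measure MYC had r = 0.656 (exact permutation p = 0.0278, adjusted p = 0.0833), and EGR1, with r = 0.603 (exact permutation p = 0.00463, adjusted p = 0.0417), was the 1 member of 9 that passed the adjustment. The part of this library property in the relations of JUN with FOS and of MYC with EGR1 was not tested. Nor was the part of sequencing depth and library makeup in the number of assembled loci.

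**Figure D3:**
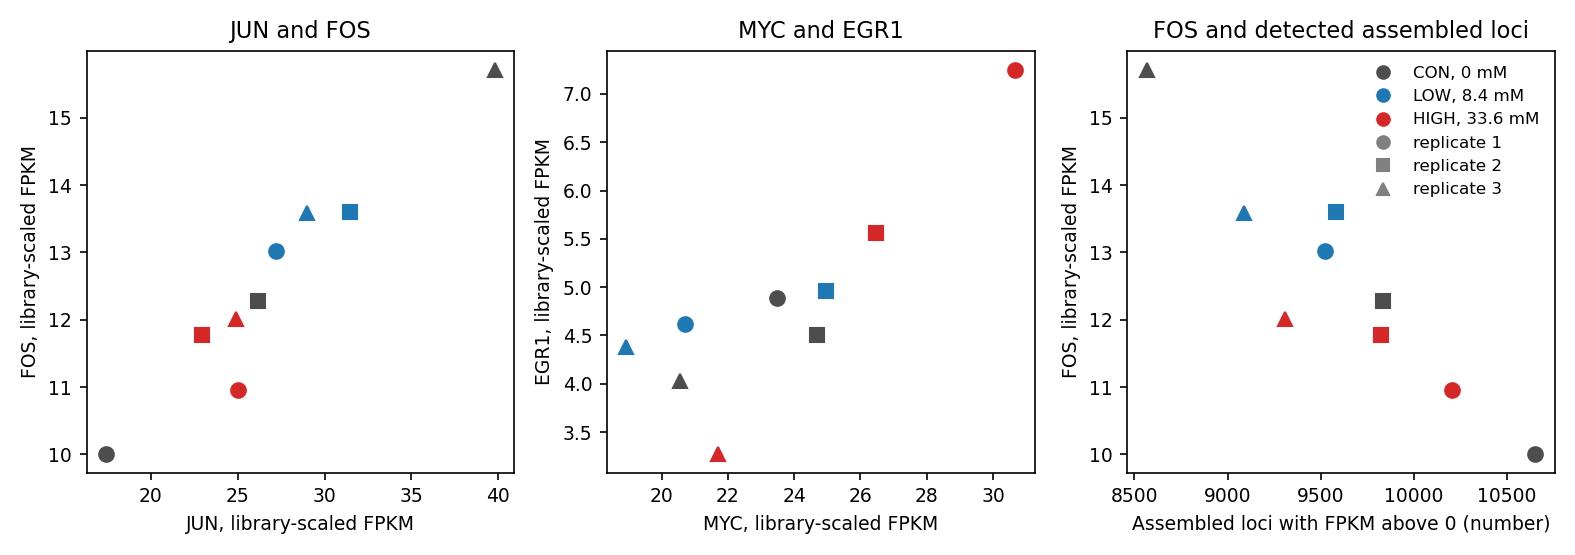
Library-scaled FPKM of FOS against JUN (left), of EGR1 against MYC (middle) and of FOS against the number of assembled loci with a value above 0 (right), 1 point per library, coloured by glucose group. CON replicates 1 and 3 form the ends of the left and right panels, with 17.4 and 39.8 FPKM of JUN, and HIGH replicate 1 forms the upper end of the middle panel at 7.25 FPKM of EGR1.

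MYC and EGR1 were the next pair, with r = 0.782 (exact permutation p = 0.0139, adjusted p = 0.250) and rho = 0.817 (exact permutation p = 0.0108, adjusted p = 0.194), n = 9, which did not pass the adjustment. With the 2 most extreme libraries for MYC removed r was 0.667, and it was lowest, 0.562, without HIGH replicate 1. FOSL2 and MYC gave r = 0.676 (exact permutation p = 0.0450, adjusted p = 0.479) and rho = 0.550 (exact permutation p = 0.133, adjusted p = 0.636), and FOSL2 was most like GIT1 (r = 0.975). MYC was most like USP22 (r = 0.974), and NR4A1, an orphan nuclear receptor that is itself an early response gene, was among the 3 genes most like it (r = 0.948).

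The wider early response was read from a list of 41 other such genes, of which 31 were tested. limma called 0 of 31 in each comparison, and at an unadjusted p under 0.05 the list had 1 gene higher and 1 lower in LOW against CON (1% and 0.948% of all genes), 2 higher and 3 lower in HIGH against CON (4.02% and 2.56%), and 2 higher and 2 lower in HIGH against LOW (5.11% and 2.45%). KLF10, a Krüppel-like factor known to respond to TGF-beta and to glucose, had the smallest p of the list. It was 4.66, 4.66 and 4.45 FPKM in CON, 7.72, 8.47 and 6.96 FPKM in LOW, and 8.88, 8.67 and 6.79 FPKM in HIGH. All 6 libraries with glucose lay above the 3 without, and LOW and HIGH overlapped. The log2 fold change was 0.73 (SE 0.14, adjusted p = 0.9999) in LOW against CON and 0.80 (SE 0.14, adjusted p = 0.411) in HIGH against CON, so it did not pass the adjustment.

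BTG1, an antiproliferative early gene, was split within the control group, with 13.9, 130 and 116 FPKM in CON against 8.46 to 11.8 FPKM in LOW and 9.26 to 11.2 FPKM in HIGH. CON replicate 1 was thus near the glucose groups while the other CON libraries were about an order of size higher (log2 fold change of HIGH against CON -2.54, SE 0.70, adjusted p = 0.659). LIF, a cytokine gene, was at 14.7, 16.8 and 22.1 FPKM in CON, 15.4, 17.5 and 19.6 FPKM in LOW and 12.8, 13.6 and 12.3 FPKM in HIGH, with all HIGH values below the others (log2 fold change of HIGH against CON -0.45, adjusted p = 0.659).

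**Figure D4:**
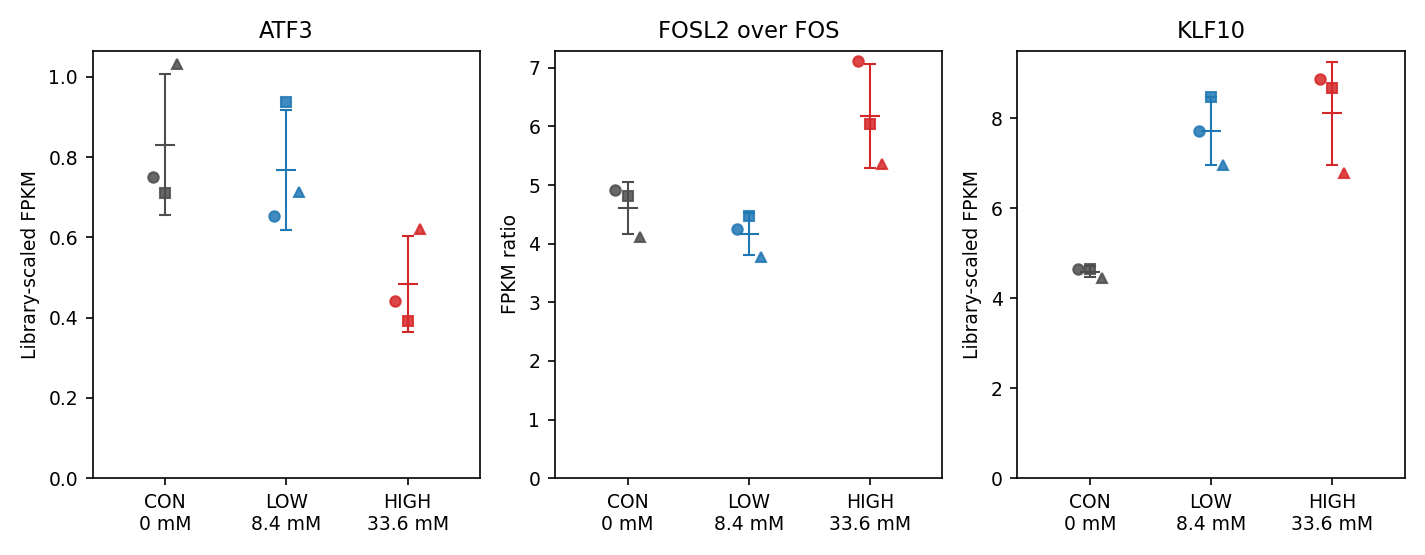
Library-scaled FPKM of ATF3 (left), the FPKM ratio of FOSL2 to FOS (middle) and library-scaled FPKM of KLF10 (right) by glucose group; points are libraries, horizontal marks are group means and bars are 1 SD (n = 3), all axes from 0. ATF3 and the ratio separate HIGH from both other groups, whereas KLF10 separates CON, at 4.45 to 4.66 FPKM, from both glucose groups.

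Genes that signal to these factors, or shut them off, gave no calls either. Of 31 kinases and factors upstream, 0 were called, and 3 were higher and 1 lower in HIGH against CON at an unadjusted p under 0.05, where 4.02% of all genes were higher and 2.56% lower. MRTFA, an SRF coactivator, was at 1.33 ± 0.349 FPKM in CON, 1.23 ± 0.269 FPKM in LOW and 2.43 ± 1.05 FPKM in HIGH (SD, n = 3 each). Of 17 feedback inhibitors 0 were called, and 1 was higher (ZFP36L1) and 1 lower (NAB2) in HIGH against CON on the same count. ZFP36L1 was at 13.0 ± 4.69 FPKM in CON, 13.0 ± 0.728 FPKM in LOW and 20.4 ± 5.49 FPKM in HIGH. Its log2 fold change of HIGH against CON was 0.68 (SE 0.28, adjusted p = 0.659). NAB2, a corepressor that binds EGR proteins, was at 25.6 ± 6.54 FPKM in CON, 23.9 ± 1.88 FPKM in LOW and 17.7 ± 2.49 FPKM in HIGH, and its log2 fold change of HIGH against CON was -0.51 (SE 0.19, adjusted p = 0.659).

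Partners and targets of AP-1 and MYC were counted in the same way, against the same shares of 4.02% higher and 2.56% lower over all genes at an unadjusted p under 0.05 in HIGH against CON. Of 10 AP-1 partners and relatives, 0 were called and 0 passed unadjusted in HIGH against CON. JDP2, a repressor that binds JUN, was at 1.96, 0.889 and 1.60 FPKM in LOW and 2.80, 2.92 and 1.67 FPKM in HIGH, which overlapped. Of 14 tested AP-1 target genes, 0 were called, and 1 was higher and 3 lower unadjusted in HIGH against CON. The higher gene was TGFB1, at 6.56 ± 2.80 FPKM in CON and 12.8 ± 4.67 FPKM in HIGH (log2 fold change 0.98, SE 0.36, adjusted p = 0.659). Among the lower genes was the collagenase MMP1, at 2.73 ± 0.684 FPKM in CON and 1.48 ± 0.405 FPKM in HIGH (log2 fold change -0.85, SE 0.25, adjusted p = 0.659). Of 17 MYC target genes, 0 were called and 2 were lower unadjusted in HIGH against CON, with a list median of -0.056 beside -0.0094 over genes with a symbol and 0.07 over all genes. These were NOP58, a ribosome-building protein gene, with a log2 fold change of -0.37, and the chaperonin gene HSPD1, with -0.28 (adjusted p = 0.659 for each). Of 10 MYC partners and antagonists, 0 were called and 1 was lower unadjusted, MLX, at 22.4 ± 2.03 FPKM in CON and 15.9 ± 3.75 FPKM in HIGH.

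Cell type markers were read beside these values. In HIGH against CON, 0 of 8 granulosa markers were higher and 3 were lower at an unadjusted p under 0.05 (STAR, INHA and CYP11A1), where 2.56% of all genes were lower, and their summed level was 213 to 267 FPKM in CON, 209 to 223 FPKM in LOW and 186 to 195 FPKM in HIGH. Of 10 theca and stroma markers, 3 were higher unadjusted (COL1A1, COL1A2 and PDGFRA), where 4.02% of all genes were higher. By the sign of the estimate alone, 5 of the 10 were higher and the others, TAGLN, ACTA2, DES, DCN and CYP17A1, were lower, with a list median of -0.045. TAGLN was at 1355, 1969 and 2832 FPKM in CON and 921, 1392 and 2118 FPKM in HIGH, which overlapped. The list had a summed level of 4791 to 6898 FPKM in CON, 5564 to 6015 FPKM in LOW and 4671 to 6146 FPKM in HIGH. None of these markers passed the adjusted test in limma. Of 7 immune markers 1 was lower unadjusted, and their summed level stayed at 16.2 to 21.7 FPKM. The endothelial list summed to at most 1.01 FPKM and the oocyte list to at most 1.17 FPKM in any library. Only 1 endothelial gene (TEK) and 2 oocyte genes (GDF9 and DDX4) were tested, and 0 of them passed unadjusted. The part of these markers in the ATF3, FOSL2 and FOS values was not tested.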

How the data were processed

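RNA from 9 cultures was depleted of ribosomal RNA and sequenced in pairs. The authors aligned reads with HISAT2, assembled transcripts with StringTie, counted reads with HTSeq 0.6.0 and computed FPKM from those reads and gene length. They deposited FPKM values per gene and per transcript and a table taken here as estimated counts per gene. The submitters' processing notes also list TopHat2 and STAR 2.5.1b, without their role. The genome build and annotation release are not given in the sources used here. The deposited estimated counts were compared with FPKM for genes with 1 transcript above a minimum of FPKM and count. For these genes, in each library, they equalled FPKM times the genomic span of the gene and 1 factor (within 3%). That factor gave the fragments per kilobase behind an FPKM. The relation was not checked for genes with more transcripts. The estimated counts summed to 4.49e+08 to 6.69e+08 per library, more than the clean reads that the paper lists for any library. They were therefore not taken as read counts and were used, rounded, in alternatives only.

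FPKM was divided by a library factor, the median over 11689 genes with at least 1 FPKM in all libraries. Genes with at least 0.1 FPKM in 3 or more libraries (25531) were tested with limma 3.58.1 (trend) on log2(FPKM + 0.1), all 3 groups in 1 fit, with Benjamini-Hochberg adjustment. Fold changes are on that scale, which understates low genes. A call needed an adjusted p under 0.05 and a log2 fold change beyond 1. Exact permutation tests over libraries used Python 3.11.15 and numpy 2.4.6. With 3 against 3 libraries an exact test cannot go below 0.1. Alternatives used edgeR 4.0.16, DESeq2 1.42.0, other filters and pseudocounts, no scaling, and left-out libraries. The scripts were tested on simulated data for HIGH against CON, with a spread that was set and not taken from these libraries. An adjusted p under 0.05 was reached by 200 of 200 genes changed 4-fold and by 85 of 200 changed 2-fold. It was also reached by 10 and 7 unchanged genes in these 2 runs. The changed genes were drawn from those with a mean of at least 1 FPKM, and all genes were given the same length. The recovery therefore does not cover the members below 1 FPKM.

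Groups followed the sample labels, and 0 value columns lacked a sample. The members and gene lists were chosen with earlier results of these data known. Besides all members, named genes were taken from the 3 tested genes per list with the smallest F-test p and from the 3 genes most like each member above 1 FPKM. Not every such gene is named. FOSL1 and the markers FSHR, LUM, TAGLN, ACTA2, DES, DCN, CYP17A1, CDH5 and BMP15 fall outside this rule and were chosen after their values were seen. No sequences are printed, and columns of the authors' own comparisons were not used.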

Additional observations from a re-analysis of the deposited data

How the results depend on the processing

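Counts of members called stayed at 0 in each comparison under every alternative run, including edgeR and DESeq2. Over all genes, calls (2 in each comparison) became 166, 175 and 341 with DESeq2 in LOW against CON, HIGH against CON and HIGH against LOW. They became 0 in each when only genes with a symbol were tested. With a minimum of 1 FPKM they became 1 in LOW against CON, 3 in HIGH against CON and 1 in HIGH against LOW. Without scaling they became 3 in LOW against CON. When only the 2 groups compared were fitted, they became 1 in HIGH against CON and 5 in HIGH against LOW. Leaving out 1 library gave 2 to 5, 2 to 7 and 2 to 4 calls. The cause of these shifts was not tested.

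Replicate numbers shared by the groups were checked over 13690 genes. Deviations of same-numbered libraries correlated at -0.07 to 0.52, and those of differently numbered libraries at -0.54 to 0.18. The same-numbered values were higher in part but not all over 0.1, so the numbers were not taken to pair the cultures. With the replicate number as a block, 3, 4 and 2 genes were called and 0 members. At an unadjusted p under 0.05, the block gave 3705 genes in HIGH against CON and 4016 in HIGH against LOW, beside 1680 and 1930 without it. Members passing unadjusted with the block were 1 in HIGH against CON and 2 in HIGH against LOW, FOSL2 and MYC. Not every library correlated best with its own number.

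The number of members with an exact p under 0.05 (1) became 2 without scaling and 0 to 2 with 1 library left out. The number of pairs past the adjustment (1) was 0 for deviations from group means and 1 to 3 with 1 library left out: 3 without CON replicate 1 and 2 without HIGH replicate 3.

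Small log2 fold changes turned sign without scaling in LOW against CON, to -0.044 for EGR1 and -0.035 for EGR2. With 1 library left out, LOW against CON ran from -0.15 to 0.046 for FOSL2, -0.15 to 0.45 for JUN, -0.051 to 0.27 for FOS, -0.013 to 0.12 for EGR1, -0.24 to 0.048 for ATF3, -0.20 to 0.065 for KLF4 and -0.028 to 0.20 for EGR2. HIGH against CON ran from -0.41 to 0.18 for JUN, -0.11 to 0.042 for JUNB, -0.26 to 0.061 for FOS, -0.060 to 0.50 for EGR1 and -0.059 to 0.21 for KLF4, and HIGH against LOW from -0.12 to 0.44 for EGR1. Without HIGH replicate 3, 3 members in HIGH against CON and 4 in HIGH against LOW had an unadjusted p under 0.05. So did 3396 and 3996 of all 25531 genes, beside 1680 and 1930 with every library kept. FOSB, EGR2, KLF4 and ATF3 had the fewest fragments per kilobase of the members, and the part of depth in their spread was not tested.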
